A study of Homo sapiens with 17 samples.

Results

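The transcripts described here encode 35 proteins that take a cell into mitosis, hold it at the spindle checkpoint, separate its chromosomes and divide its cytoplasm. They are given by gene symbol in a list that leaves out kinesins and kinetochore subunits. The rule uses no measured value, but the list was drawn up with earlier results of these data known. All 35 were among the 41040 named genes of the deposited count tables and all 35 passed the filter on low counts, which kept 16891 genes. RNA-seq libraries were made from IMR-90, a line of diploid fibroblasts from human fetal lung. Untreated cells were collected as week 0 (5 libraries, replicates 1, 3, 4, 5 and 6). The other cells received 20 µM etoposide, a topoisomerase II poison that breaks DNA, for 48 h, and after its removal were harvested at week 1 (6 libraries) or week 4 (6 libraries), labelled as days 7 and 28. The study set out to compare non-senescent with senescent cells. Untreated cells were sampled at week 0 alone, so the effect of etoposide and that of time in culture cannot be told apart. The labels do not say that replicates were separate cultures, so a p-value here speaks of differences among libraries that may be technical repeats.

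A cell enters mitosis when CDK1 bound to a B-type cyclin is freed of inhibitory phosphates by CDC25 phosphatases. Polo-like and Aurora kinases then build the spindle, and the checkpoint proteins hold back the anaphase-promoting complex, a ubiquitin ligase, until every chromosome is attached. Once released, the complex and its activator CDC20 destroy securin and cyclin B, separase opens the cohesin rings, and a contractile ring divides the cell. Most of these genes are transcribed mainly in G2 and M phase, with FOXM1, B-MYB, the MuvB complex and NF-Y at their promoters, and dividing fibroblast cultures express them while cultures out of the cycle express little of them.

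Each library held 77.2 to 102.8 M counts for named genes, and the groups overlapped in this total. All 12 fibroblast markers examined, among them COL1A1 and FN1, had a mean of at least 1 CPM (a gene's counts scaled to a common library size) in each group, and their summed level was 43980 to 53339 CPM at week 0, 75103 to 81375 at week 1 and 97630 to 101599 at week 4. The 8 epithelial markers summed to 65.0 to 71.5, 235 to 275 and 193 to 213 CPM, of which KRT18 was the highest and KRT5, KRT14 and ESRP1 stayed under 0.1 CPM. The 6 endothelial markers summed to 83.9 to 103.4, 58.3 to 62.2 and 52.1 to 76.6 CPM, of which TEK was the highest and CDH5 and CLDN5 stayed under 0.1 CPM. The 7 leukocyte markers summed to at most 0.907 CPM in any library. The fibroblast and epithelial sums were higher at weeks 1 and 4 than at week 0, and the endothelial sum was lower. Single markers did not all follow these sums. At week 1, 5 fibroblast markers were called lower and 6 higher (34.0% and 32.9% of tested genes). At week 4, 2 were lower and 8 higher (33.7% and 33.9%). Of the 4 endothelial markers tested, 2 were lower and 2 higher at both times. Calls are by the edgeR test used below, at an adjusted p under 0.05. The part of the markers in the results was not tested.

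All 35 mitotic transcripts were lower at week 1 than at week 0 and all 35 were lower at week 4. They made up 0.510% ± 0.0245 (SD, n = 5) of all counts at week 0, 0.0558% ± 0.00129 (n = 6) at week 1 and 0.0609% ± 0.00636 (n = 6) at week 4. The median member kept 8.64% of its week 0 level at week 1 and 11.2% at week 4. In bulk RNA, fewer cells that express a gene and less RNA per cell cannot be told apart.

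The question at week 1 was how treated cells differed from untreated cells soon after the drug. By edgeR's quasi-likelihood test, all 35 members were called lower at an adjusted p under 0.05, against 34.0% of all tested genes called lower. NUSAP1 passed the filter on low counts only through week 0 and so had to differ. Its call is no support, and neither is its place in the other counts of this paragraph. The other 34 would have passed without week 0. The libraries of week 0 and week 1 did not overlap for any of the 35, against 24.0% of tested genes that were lower without overlap. The median log2 difference of the members was -3.53, and that of all tested genes was -0.02. Called lower with an estimated fall of more than 2-fold were 34 members (9.08% of tested genes). With one of more than 8-fold they were 27 (1.05% of tested genes). Ranked by log2 difference, 24 of the 100 most lowered of the 16891 tested genes were among the 35 members, with NUSAP1 counted. The size of the fall ran from -4.37 for NEK2 to -0.68 for BUB3.

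Week 4 was compared with week 0 to see whether these differences were still present. All 35 members were again called lower (33.7% of tested genes) and none of their week 4 libraries reached the lowest week 0 library (23.6% of tested genes were lower without overlap). NUSAP1 is counted here too and is again no support, as it passed the filter only through week 0. The median log2 difference was -3.16, against 0.00 for all tested genes. By the estimate, all 35 members were lower by more than 2-fold (7.55% of tested genes) and 23 by more than 8-fold (0.485% of tested genes). In a test against a minimum of 2-fold, 34 passed and BUB3 did not. BUB3 had the smallest fall at this time as well, and CDKN3 the largest. The plot of each member's level by library shows a step down in every gene, of differing size.

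**Figure D1:**
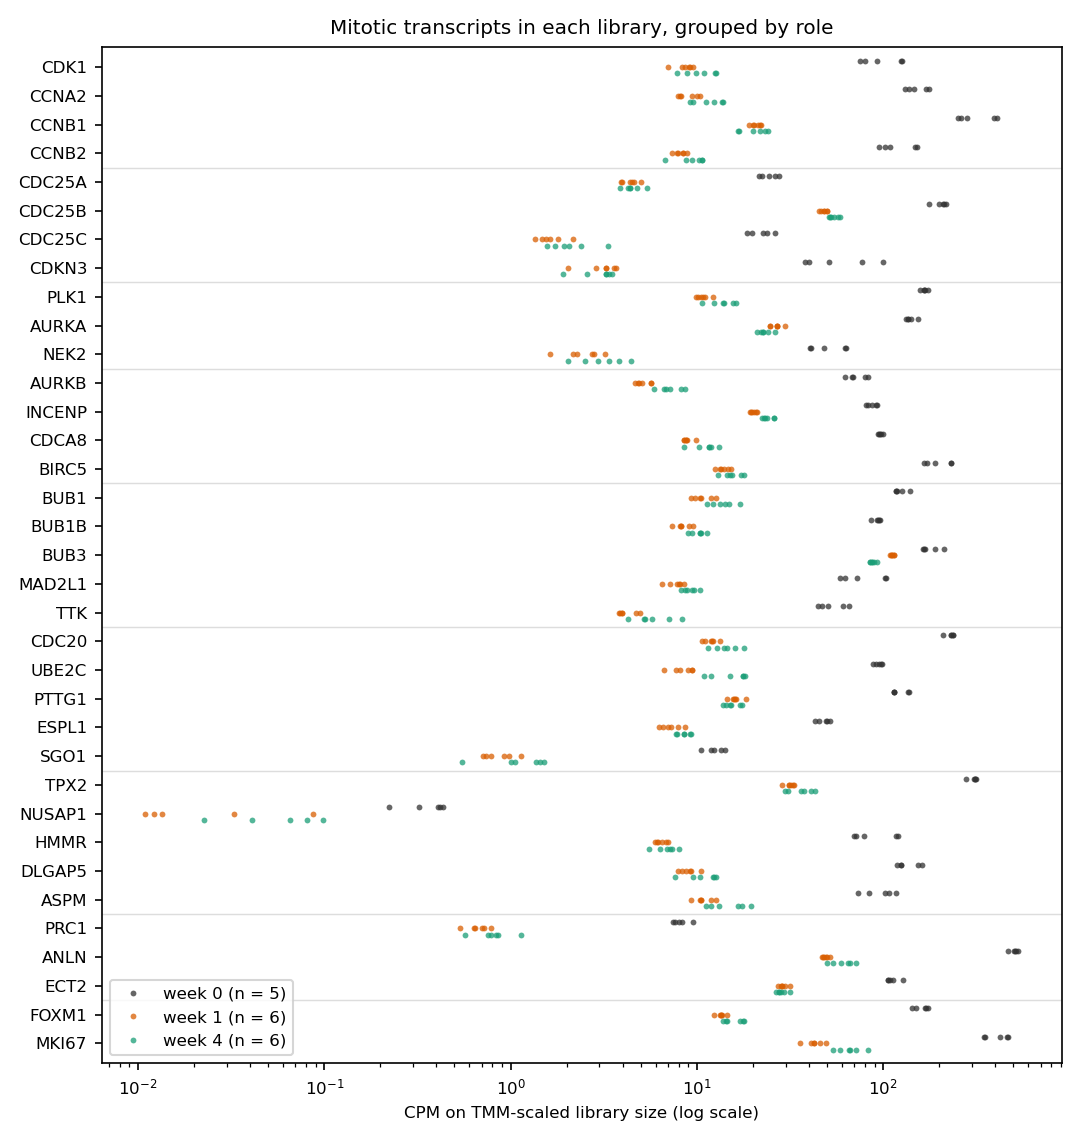
Level of each mitotic transcript (CPM, log axis) in the 17 libraries, coloured by week 0 (n = 5), week 1 (n = 6) and week 4 (n = 6), with each point a library and genes ordered by role. In all 35 genes the week 0 points lie above those of both later groups, and the gap is narrowest for BUB3; the 2 values of 0 for NUSAP1 are not drawn.

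**Figure D2:**
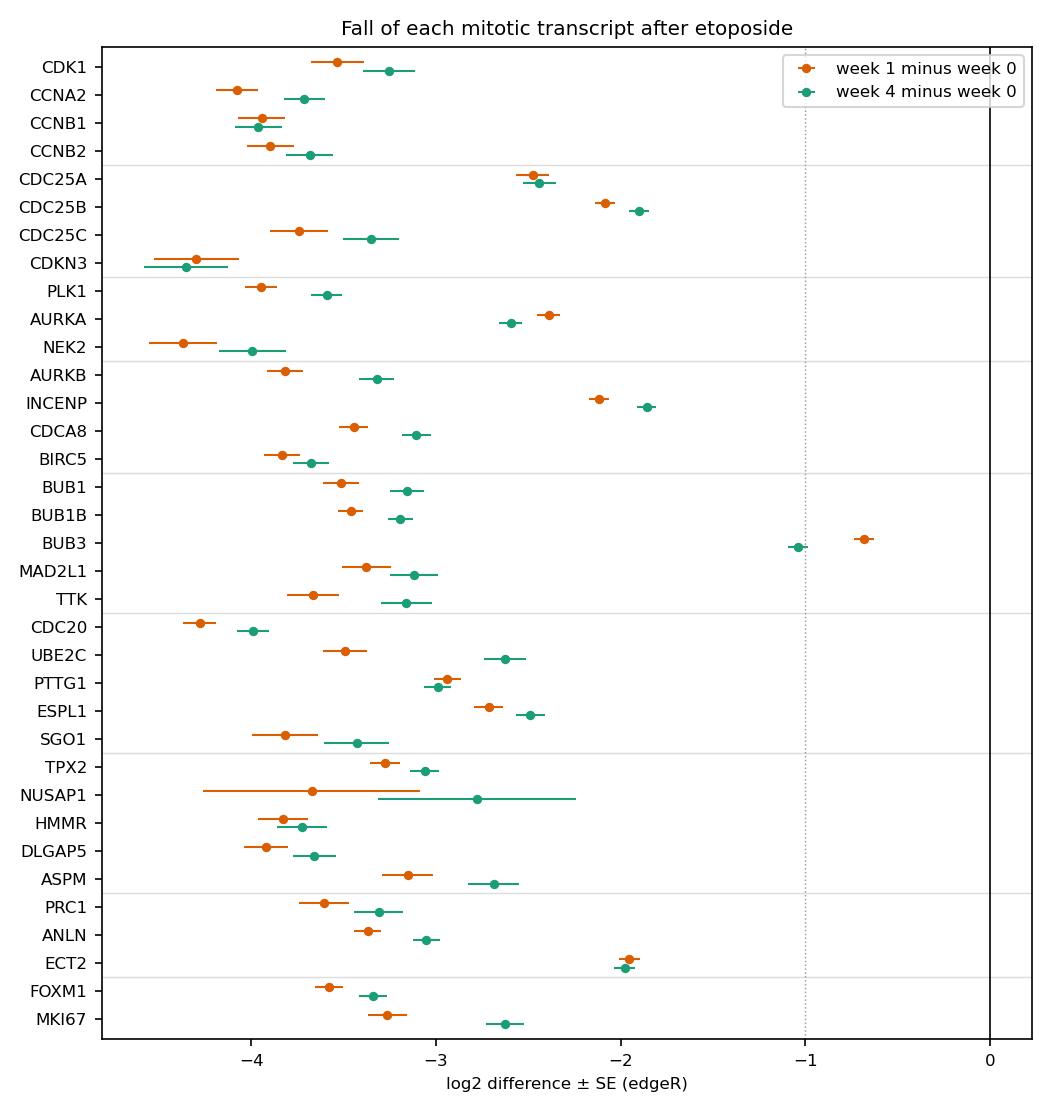
Log2 difference from week 0 of each member at week 1 and week 4, with its standard error as a bar, in role order with thin lines between roles. Most genes lie beyond -3, while BUB3, INCENP, ECT2 and CDC25B form the right-hand edge, and the dotted line marks a 2-fold fall.

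Because these genes fell together, the sequence just before their start sites was examined for the letters of the elements known at mitotic promoters. These are the cell cycle genes homology region (CHR; TTTGAA or TTTAAA), the CCAAT box bound by NF-Y and GGCGG as part of the cell cycle dependent element. RefSeq windows (GRCh38.p14) of 300 bases, 250 before a start site and 50 after it, were held for 28 of the 35 genes, as 38 windows. Both strands were searched. The 100 bases before the start of 12 genes follow, written 5′ to 3′ in the direction of transcription, because most hold CHR letters and CCAAT in differing arrangements and NEK2 and CDC25A hold no CHR letters. CDC25C has several start sites, and the one shown is that with CHR letters before it. Capitals mark the CHR letters and CCAAT on either strand.
CCNB1 (chr5:69167050-69167149, plus strand): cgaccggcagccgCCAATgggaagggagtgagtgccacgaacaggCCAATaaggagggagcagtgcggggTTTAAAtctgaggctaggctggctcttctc
CCNB2 (chr15:59105046-59105145, plus strand): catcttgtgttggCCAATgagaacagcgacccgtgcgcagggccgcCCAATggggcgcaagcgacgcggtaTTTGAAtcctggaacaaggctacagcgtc
CDC25C (chr5:138331805-138331904, minus strand): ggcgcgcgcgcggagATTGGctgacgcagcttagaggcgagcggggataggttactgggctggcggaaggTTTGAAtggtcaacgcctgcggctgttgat
PLK1 (chr16:23678789-23678888, plus strand): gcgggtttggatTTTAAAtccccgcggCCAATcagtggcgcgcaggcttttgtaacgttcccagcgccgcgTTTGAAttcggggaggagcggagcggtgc
CDCA8 (chr1:37692416-37692515, plus strand): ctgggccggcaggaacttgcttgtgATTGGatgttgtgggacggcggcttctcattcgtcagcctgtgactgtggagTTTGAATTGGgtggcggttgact
BUB1B (chr15:40160969-40161068, plus strand): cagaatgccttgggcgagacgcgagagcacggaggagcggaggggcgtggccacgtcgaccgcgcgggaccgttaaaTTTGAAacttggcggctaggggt
CDC20 (chr1:43358881-43358980, plus strand): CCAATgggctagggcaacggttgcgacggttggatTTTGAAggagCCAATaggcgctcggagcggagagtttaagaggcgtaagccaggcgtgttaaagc
HMMR (chr5:163460532-163460631, plus strand): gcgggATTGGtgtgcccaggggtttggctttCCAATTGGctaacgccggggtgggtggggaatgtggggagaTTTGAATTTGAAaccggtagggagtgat
PRC1 (chr15:90994536-90994635, minus strand): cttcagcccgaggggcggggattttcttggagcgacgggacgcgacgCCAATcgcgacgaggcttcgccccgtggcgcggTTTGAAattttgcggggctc
MKI67 (chr10:128126424-128126523, minus strand): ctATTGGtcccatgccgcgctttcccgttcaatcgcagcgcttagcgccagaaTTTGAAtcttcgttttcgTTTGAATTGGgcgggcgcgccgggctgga
NEK2 (chr1:211675622-211675721, minus strand): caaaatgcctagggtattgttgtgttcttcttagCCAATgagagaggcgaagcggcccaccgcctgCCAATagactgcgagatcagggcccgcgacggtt
CDC25A (chr3:48188418-48188517, minus strand): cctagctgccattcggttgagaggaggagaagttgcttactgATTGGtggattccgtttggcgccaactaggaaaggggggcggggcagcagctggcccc

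TTTGAA or TTTAAA was present in 26 of the 38 windows (68.4%, against 24.0% of all 35116 windows of this length in the table). At least 1 window of 22 of the 28 genes held it. TTTGAA by itself was in 22 windows (57.9%, against 15.2%) and TTTAAA in 9 (23.7%, against 12.2%). CCAAT was in 31 windows (81.6%, against 34.6%), and 19 windows held it at 2 or more places (50%, against 10.8%). A CHR match together with CCAAT was present in 22 windows (57.9%, against 9.27%). GGCGG, frequent in G+C-rich promoters in general, was in 37 windows (97.4%, against 59.0%). Several windows share a gene, and TTTAAA is its own reverse complement.

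Position was shared by some of the CHR matches. Of the 42 CHR matches in the members' windows, 19 began within 60 bases before the start site, and 16 windows held such a match (42.1%, against 5.49% of all windows). In CCNB1 and in the CDC25C window printed above a match began 30 bases before the start. The other CDC25C windows held no match before the start. In CCNB2, PLK1 and MKI67 a match began 29 bases before it, and each of these windows held at least 1 further match upstream of that. CCNB2 and CCNB1 carried a pair of CCAAT letters upstream of the CHR letters at nearly equal spacing, 87 and 54 bases before the start in CCNB2 and 87 and 55 in CCNB1. HMMR carried TTTGAA in tandem, and in CDCA8 and MKI67 the CHR letters ran into a reversed CCAAT that shares a base with them. The stretches printed for NEK2, with the largest fall at week 1, and for CDC25A had no CHR letters. A match of letters is a description of sequence and was not tested as a binding site.

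**Figure D3:**
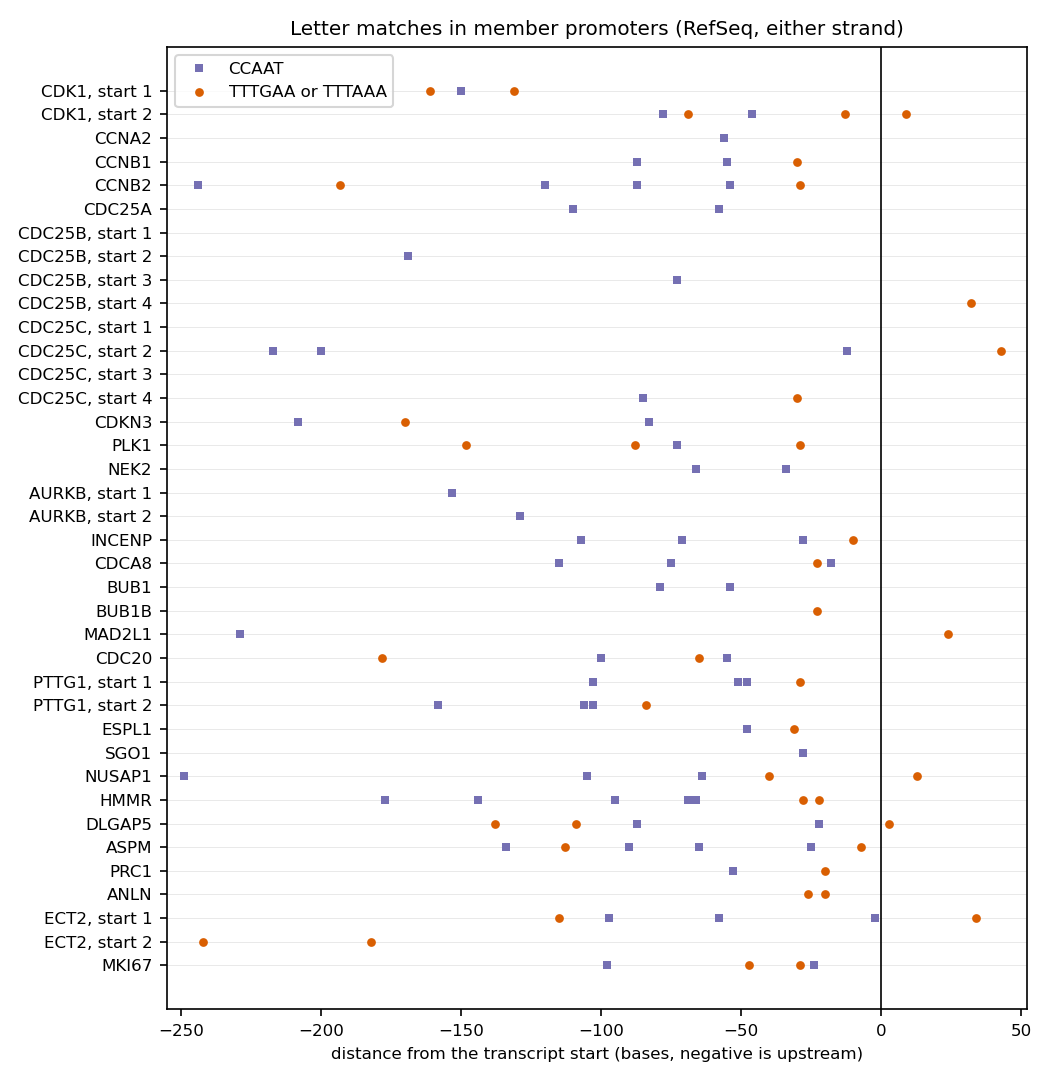
Positions of TTTGAA or TTTAAA and of CCAAT, on either strand, in the 38 RefSeq windows of the mitotic genes, with a row per window. The axis gives bases from the transcript start, negative upstream. Of the 42 TTTGAA or TTTAAA matches, 19 began within 60 bases before the start.

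CDK1 and its cyclins, which drive entry into mitosis, fell together, with a median log2 difference of -3.92 at week 1 over the 4 genes. Levels are in CPM after TMM scaling, week 0 values follow the order of replicates 1, 3, 4, 5 and 6, and averages carry the SD over 5, 6 and 6 libraries. The ± after a log2 difference is its standard error. CCNB1 stood at 393, 283, 407, 260.3 and 253 CPM in the week 0 libraries, with a lowest, median and highest value of 19.1, 20.7 and 22.2 CPM at week 1 and of 16.6, 21.0 and 24.0 CPM at week 4. Cyclin B1, the partner of CDK1, was thus spread widely among untreated libraries, and even the lowest of them was far above every treated library. The log2 difference was -3.94 ± 0.13 (adjusted p = 2.5e-17) at week 1 and -3.96 ± 0.13 (adjusted p = 2.7e-17) at week 4 (edgeR), and 6.50% of the week 0 level was left at week 1. CCNB2, the second B-type cyclin, averaged 121 ± 26.7 CPM at week 0, 8.12 ± 0.543 at week 1 and 9.41 ± 1.49 at week 4. CCNA2, the A-type cyclin of S phase and early mitosis, stood at 177, 146, 170.2, 132 and 138 CPM at week 0, with lowest, median and highest values of 7.92, 8.81 and 10.3 CPM at week 1 and 9.22, 11.7 and 13.8 CPM at week 4. CDK1, the mitotic kinase itself, stood at 125, 92.4, 127, 79.6 and 75.5 CPM at week 0, with lowest, median and highest values of 6.99, 8.84 and 9.54 CPM at week 1 and 7.86, 10.4 and 12.7 CPM at week 4. At week 1 CCNA2 had the largest fall of the 4 genes, -4.08 ± 0.11 (adjusted p = 2.1e-18), and CDK1 the smallest, -3.53 ± 0.14 (adjusted p = 1.5e-15), with 8.64% left. Treated and untreated libraries lay far apart in each of them.

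The CDC25 phosphatases, which strip the inhibitory phosphates from cyclin-dependent kinases, kept different shares of their levels. CDC25B stood at 199, 210.5, 176, 213 and 218 CPM in the week 0 libraries, with a lowest, median and highest value of 45.4, 48.2 and 49.96 CPM at week 1 and of 51.4, 53.7 and 58.6 CPM at week 4. CDC25B, which starts CDK1 activation at the centrosome, had the smallest fall of the 3, -2.08 ± 0.05 (adjusted p = 6.5e-19) at week 1 and -1.90 ± 0.05 (adjusted p = 3.4e-18) at week 4, so that 23.6% and 26.8% were left. CDC25C, active at mitotic entry, averaged 22.2 ± 3.08 CPM at week 0, 1.66 ± 0.293 at week 1 and 2.17 ± 0.634 at week 4, which left 7.48% at week 1. CDC25A, which also acts on CDK2 at the start of S phase, averaged 24.5 ± 2.56 CPM at week 0, 4.40 ± 0.407 at week 1 and 4.51 ± 0.523 at week 4. Its remaining share at week 1, 18.0%, lay between those of the other two.

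CDKN3, a phosphatase that removes the activating phosphate of cyclin-dependent kinases, was among the most lowered members. CDKN3 stood at 100.2, 51.1, 76.7, 39.9 and 38.2 CPM in the week 0 libraries, with a lowest, median and highest value of 2.04, 3.26 and 3.67 CPM at week 1 and of 1.91, 3.25 and 3.52 CPM at week 4. Week 0 replicates 1 and 4 were the highest and the untreated libraries varied widely, yet all 5 lay far above every treated library. The log2 difference was -4.30 ± 0.23 (adjusted p = 1.5e-13) at week 1 and -4.35 ± 0.23 (adjusted p = 1.4e-13) at week 4 (edgeR).

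Of the kinases, PLK1 and NEK2 stood at log2 differences of -3.95 and -4.37 at week 1 and AURKA at -2.39. PLK1, the polo-like kinase of spindle and cytokinesis, averaged 166 ± 6.10 CPM at week 0, 10.8 ± 0.825 at week 1 and 13.8 ± 2.04 at week 4. NEK2 stood at 62.6, 47.9, 63.0, 41.0 and 40.7 CPM in the week 0 libraries, with a lowest, median and highest value of 1.63, 2.51 and 3.23 CPM at week 1 and of 2.03, 3.17 and 4.46 CPM at week 4. NEK2, which separates the centrosomes, had the largest fall of the 35 at week 1, -4.37 ± 0.19 (adjusted p = 3e-15). AURKA stood at 136, 133, 154, 141 and 137 CPM in the week 0 libraries, with a lowest, median and highest value of 24.8, 26.9 and 29.9 CPM at week 1 and of 21.1, 22.7 and 26.4 CPM at week 4. AURKA, the kinase of centrosome maturation and spindle poles, kept 19.1% of its level at week 1 and 16.6% at week 4, with log2 differences of -2.39 ± 0.06 (adjusted p = 4.6e-19) and -2.59 ± 0.06 (adjusted p = 1.7e-19). Untreated libraries of all 3 kinases lay apart from treated ones.

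The chromosomal passenger complex joins the kinase Aurora B (AURKB) to INCENP, borealin (CDCA8) and survivin (BIRC5), and corrects faulty attachments of chromosomes. Its subunits kept differing shares of their levels. INCENP stood at 81.2, 92.0, 83.3, 92.8 and 86.8 CPM in the week 0 libraries, with a lowest, median and highest value of 19.3, 20.0 and 21.0 CPM at week 1 and of 22.3, 23.5 and 26.1 CPM at week 4. INCENP, the scaffold, kept 23.0% at week 1 and 27.6% at week 4. AURKB stood at 79.6, 68.1, 83.0, 69.1 and 62.1 CPM in the week 0 libraries, with a lowest, median and highest value of 4.64, 4.97 and 5.70 CPM at week 1 and of 5.87, 7.0 and 8.68 CPM at week 4. The kinase kept 7.08% and 10.0%. BIRC5 stood at 233, 189.8, 231, 173 and 166 CPM at week 0, with lowest, median and highest values of 12.5, 13.8 and 15.3 CPM at week 1 and 12.9, 15.2 and 17.9 CPM at week 4. CDCA8 averaged 96.5 ± 2.28 CPM at week 0, 8.86 ± 0.512 at week 1 and 11.2 ± 1.60 at week 4. Survivin had the largest fall of the complex at week 4, and its treated and untreated libraries lay far apart. At week 1 survivin, at -3.83 ± 0.10, and AURKB, at -3.82 ± 0.10, fell by about the same. The log2 difference at week 1 was -2.12 ± 0.05 for INCENP and between -3.83 and -3.45 for the other subunits (edgeR, adjusted p = 3.3e-19 for INCENP, 4.8e-19 for AURKB).

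In the spindle checkpoint, BUB3 stood apart. BUB3 stood at 189.8, 169, 212, 164 and 166 CPM in the week 0 libraries, with a lowest, median and highest value of 109.5, 112 and 115 CPM at week 1 and of 84.7, 87.5 and 92.6 CPM at week 4. BUB3, the WD-repeat protein that brings BUB1 and BUBR1 to kinetochores, kept 62.4% of its week 0 level at week 1 and 48.7% at week 4. Its log2 difference was -0.68 ± 0.05 (adjusted p = 2.4e-10) at week 1 and -1.04 ± 0.06 (adjusted p = 1.9e-13) at week 4 (edgeR), and its fall did not pass a test against a minimum of 2-fold (adjusted p = 1 and 0.59). No library of 1 week overlapped with another week. The other checkpoint genes fell by more than 8-fold at both times. BUB1, the kinase partner, averaged 124 ± 9.39 CPM at week 0, 10.8 ± 1.29 at week 1 and 13.9 ± 2.03 at week 4. BUB1B, which encodes BUBR1, stood at 86.5, 92.8, 96.8, 94.6 and 94.4 CPM at week 0, with lowest, median and highest values of 7.36, 8.23 and 9.53 CPM at week 1 and 8.97, 10.4 and 11.3 CPM at week 4. No treated library of either gene came near an untreated one, and both partners of BUB3 were down to about the same share, 8.75% and 9.08% at week 1. MAD2L1, the MAD2 protein that inhibits CDC20, averaged 80.0 ± 21.9 CPM at week 0, 7.69 ± 0.726 at week 1 and 9.19 ± 0.801 at week 4. TTK, the MPS1 kinase that starts checkpoint signalling, stood at 60.6, 46.9, 65.6, 44.9 and 50.5 CPM at week 0, with lowest, median and highest values of 3.82, 3.98 and 4.96 CPM at week 1 and 4.29, 5.51 and 8.36 CPM at week 4.

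At the step into anaphase, CDC20 kept a smaller share of its level than its ubiquitin-conjugating partner at the complex. CDC20 stood at 238, 231, 238, 233 and 209.8 CPM in the week 0 libraries, with a lowest, median and highest value of 10.6, 11.9 and 13.3 CPM at week 1 and of 11.5, 14.2 and 17.9 CPM at week 4. CDC20, the activator of the anaphase-promoting complex, kept 5.15% at week 1 and 6.29% at week 4, at log2 differences of -4.28 ± 0.09 (adjusted p = 2.3e-20) and -3.99 ± 0.09 (adjusted p = 6.3e-20). UBE2C stood at 98.7, 95.3, 88.4, 97.1 and 91.2 CPM in the week 0 libraries, with a lowest, median and highest value of 6.65, 8.56 and 9.38 CPM at week 1 and of 10.9, 16.4 and 18.0 CPM at week 4. UBE2C, the conjugating enzyme that starts ubiquitin chains for the complex, kept 8.90% and then 16.2%. Every week 4 library of UBE2C lay above every week 1 library and below every week 0 library. PTTG1 encodes securin, the inhibitor of separase, and averaged 123 ± 12.3 CPM at week 0, 16.1 ± 1.22 at week 1 and 15.5 ± 1.42 at week 4. ESPL1, separase itself, stood at 45.0, 50.3, 42.9, 51.8 and 49.1 CPM at week 0, with lowest, median and highest values of 6.25, 7.16 and 8.62 CPM at week 1 and 7.75, 8.53 and 9.33 CPM at week 4. SGO1, shugoshin, which protects centromeric cohesin, averaged 12.5 ± 1.43 CPM at week 0, 0.881 ± 0.166 at week 1 and 1.15 ± 0.362 at week 4. Securin and separase kept 13.1% and 15.2% at week 1, the largest remaining shares of the 5 anaphase genes.

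The spindle assembly genes were lower by 8-fold or more at week 1 in all 5 cases. TPX2, which activates Aurora A on microtubules, averaged 305 ± 14.3 CPM at week 0, 31.5 ± 1.57 at week 1 and 36.5 ± 5.40 at week 4. HMMR, a spindle protein also known as RHAMM, stood at 119.6, 78.7, 117, 69.8 and 71.6 CPM at week 0, with lowest, median and highest values of 5.96, 6.37 and 6.96 CPM at week 1 and 5.50, 7.02 and 8.03 CPM at week 4. DLGAP5, which stabilises kinetochore fibres, stood at 154, 124, 162, 119 and 125 CPM at week 0, with lowest, median and highest values of 7.90, 8.94 and 10.6 CPM at week 1 and 7.67, 11.4 and 12.6 CPM at week 4. ASPM, which acts at spindle poles, stood at 73.6, 107, 84.1, 102 and 117 CPM at week 0, with lowest, median and highest values of 9.32, 10.5 and 12.6 CPM at week 1 and 11.2, 14.96 and 19.6 CPM at week 4. At week 1 DLGAP5 had the largest fall of the 5, -3.92 ± 0.12 (adjusted p = 7.6e-18), and ASPM the smallest, -3.15 ± 0.14 (adjusted p = 5.2e-15), and no libraries overlapped with week 0. NUSAP1, which bundles spindle microtubules, was counted at only 21 to 45 reads per week 0 library, 0 to 8 at week 1 and 0 to 9 at week 4. Those counts are too few to place its fall precisely, and it passed the filter on low counts through week 0 alone. Its log2 difference, -3.67 ± 0.59 at week 1 and -2.78 ± 0.54 at week 4, is therefore given as a description.

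Of the cytokinesis genes, ECT2 kept the largest share. ECT2 stood at 112, 107, 128, 106 and 109 CPM in the week 0 libraries, with a lowest, median and highest value of 27.3, 28.6 and 31.6 CPM at week 1 and of 26.6, 28.04 and 31.7 CPM at week 4. ECT2, the exchange factor that activates RhoA at the cell equator, kept 25.8% at week 1 and 25.4% at week 4, with log2 differences of -1.95 ± 0.06 (adjusted p = 4e-18) and -1.98 ± 0.06 (adjusted p = 4.1e-18). ANLN, anillin, the scaffold of the contractile ring, averaged 506 ± 22.9 CPM at week 0, 48.9 ± 1.85 at week 1 and 61.0 ± 8.10 at week 4. PRC1, which bundles the microtubules of the central spindle, stood at 7.66, 9.51, 7.98, 8.37 and 7.46 CPM at week 0, with lowest, median and highest values of 0.535, 0.673 and 0.789 CPM at week 1 and 0.566, 0.810 and 1.14 CPM at week 4. ANLN and PRC1 kept 9.67% and 8.22% at week 1.

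FOXM1 and MKI67 were both far lower after treatment. FOXM1, a forkhead transcription factor of G2 and M phase promoters, stood at 149, 169, 143, 174 and 170.4 CPM at week 0, with lowest, median and highest values of 12.3, 13.5 and 14.6 CPM at week 1 and 13.8, 15.8 and 17.9 CPM at week 4. MKI67 stood at 351, 467, 346, 461 and 426 CPM in the week 0 libraries, with a lowest, median and highest value of 35.6, 42.3 and 49.2 CPM at week 1 and of 53.7, 66.3 and 82.6 CPM at week 4. MKI67, the Ki-67 antigen that coats mitotic chromosomes and is used as a proliferation marker, kept 10.4% at week 1 and 16.2% at week 4. The week 4 libraries lay above the week 1 libraries without overlap.

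Levels can be compared between genes only per kilobase of gene length. On that scale CCNB1 was the highest member at week 0, at 131 CPM per kb. BUB3 was the highest at week 1, at 13.7 CPM per kb, and CDC25B at week 4, at 14.0. UBE2C went from the 5th place at week 0 to the 8th at week 1 and the 2nd at week 4. The lowest places belonged to NUSAP1 (35th) and PRC1 (34th) at all 3 times.

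Those low levels come with a limit of counting. In the GENCODE v29 annotation of GRCh38, 62.2% of the exonic bases of NUSAP1 and 58.4% of those of PRC1 are also exons of another gene. For NUSAP1 this is AC087721.2 on the same strand, and for PRC1 they are AC068831.7 on the same strand and PRC1-AS1 on the opposite strand. PRC1-AS1 was among the named genes of the deposited counts, while AC087721.2 and AC068831.7 were not there by those names. Whether the annotation used for counting held them is not given. SGO1 (17.7%), FOXM1 (15.9%), PLK1 (12.5%) and BUB1B (10.2%) overlapped to a lesser extent, 5 further members by less than 10%, and the other 24 not at all. How reads in overlapping exons were counted is not given in the sources used here. The levels of NUSAP1 and PRC1 are therefore uncertain.

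The comparison of week 4 with week 1 asks whether the treated cells went on changing. Of the 35 members, 17 rose (21.8% of tested genes were called higher), 2 fell (18.6% called lower) and 16 did not pass the test, by edgeR at an adjusted p under 0.05. The share that rose was thus above the background, but the changes were small. The median log2 difference was 0.27, against 0.01 for all tested genes, and none of the 19 called changes reached 2-fold, which 2.99% of tested genes did upward and 1.14% downward. UBE2C rose by the most, 0.86 ± 0.11 (adjusted p = 1.7e-06), followed by MKI67, 0.64 ± 0.10 (adjusted p = 1.6e-05), TTK, 0.51 ± 0.13 (adjusted p = 0.0042), AURKB, 0.50 ± 0.09 (adjusted p = 0.00014), and ASPM, 0.46 ± 0.13 (adjusted p = 0.0062). The libraries did not overlap for 5 of the genes that rose, UBE2C, MKI67, AURKB, INCENP and CDC25B (15.3% of tested genes were higher without overlap). BUB3 was the gene that fell without overlap (14.9% of tested genes), at a log2 difference of -0.36 ± 0.05 (adjusted p = 1.2e-05). AURKA fell with some overlap, at -0.21 ± 0.06 (adjusted p = 0.0065). CCNA2, PLK1, CDCA8, BUB1, BUB1B, CDC20, ESPL1, TPX2, ANLN and FOXM1 also rose, by 0.22 to 0.37 on the log2 scale. CCNB1 was at -0.02 ± 0.12 (adjusted p = 0.91), ECT2 at -0.02 ± 0.05 (adjusted p = 0.77) and PTTG1 at -0.05 ± 0.07 (adjusted p = 0.59), none of which passed.

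Single libraries decided the call for some members. ESPL1 did not pass without week 1 replicate 2 (adjusted p = 0.056), week 1 replicate 6 (0.060), week 4 replicate 4 (0.051) or week 4 replicate 6 (0.056). TPX2 did not pass without week 1 replicate 6 (0.057), week 4 replicate 4 (0.063) or week 4 replicate 5 (0.073). Without week 4 replicate 3, the library with the lowest value in 23 of the 35 members, 5 more members passed: CDK1 (0.043), CCNB2 (0.038), CDC25C (0.019), SGO1 (0.0048) and DLGAP5 (0.0065). Without week 4 replicate 1, CDC25C (0.033), NEK2 (0.035), DLGAP5 (0.045) and PRC1 (0.024) passed. CDC25C also passed without week 1 replicate 2 (0.020), and DLGAP5 without week 1 replicate 5 (0.031).

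**Figure D4:**
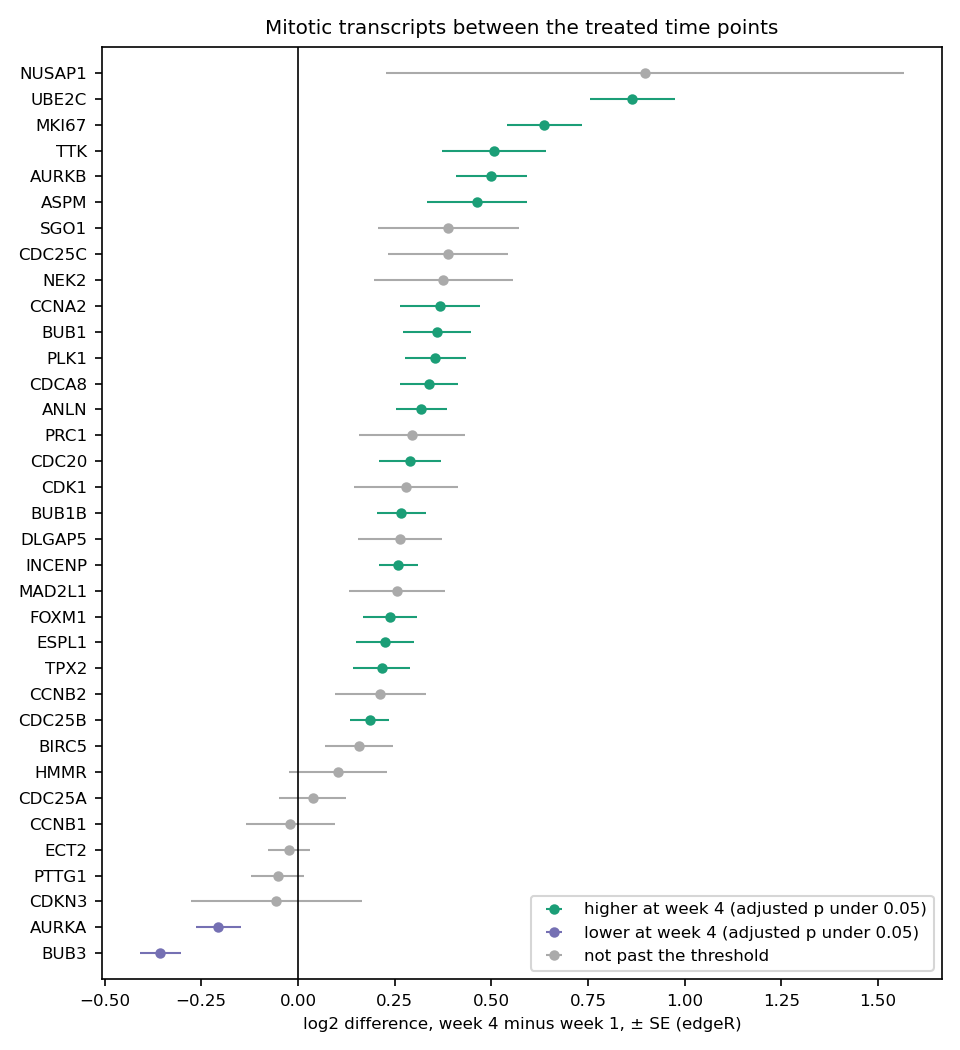
Log2 difference between week 4 and week 1 of each member with its standard error, coloured by whether it was called higher, called lower or not called by edgeR. UBE2C and MKI67 lie farthest to the right among the called genes, AURKA and BUB3 lie to the left of 0, and NUSAP1 has the widest bar.

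Some members did not keep their proportions to one another. The ratio of 2 members within a library does not depend on library scaling, and 7 pairs of members were compared. The members of a pair need not work together. The pairs were chosen after the values had been seen, so the ratios are given as a description with no test. The ratio of BUB3 to BUB1 had a geometric mean of 1.45 at week 0, 10.4 at week 1 and 6.38 at week 4, with ranges over libraries of 1.399 to 1.52, 8.60 to 11.9 and 4.96 to 7.45. AURKA to AURKB was 1.94 at week 0, 5.22 at week 1 and 3.22 at week 4, with ranges of 1.71 to 2.20, 4.35 to 6.20 and 2.76 to 3.87. In both pairs the ranges of the 3 weeks lay apart, with the highest ratio at week 1, where the second gene of the pair was at its lowest share.

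The ratio of UBE2C to CDC20 moved upward throughout, with geometric means of 0.410 at week 0, 0.704 at week 1 and 1.04 at week 4 and ranges of 0.372 to 0.435, 0.627 to 0.782 and 0.930 to 1.27. MKI67 to FOXM1 did so too, at 2.53 at week 0, 3.16 at week 1 and 4.17 at week 4, with ranges of 2.35 to 2.77, 2.82 to 3.60 and 3.68 to 4.84. The ranges of the 3 weeks did not overlap in either pair. CDC25B to CDC25C was 9.21 at week 0, 29.2 at week 1 and 25.9 at week 4, with ranges of 6.71 to 11.7, 22.9 to 35.9 and 17.3 to 32.9, so that weeks 1 and 4 overlapped and week 0 lay below both. CCNB1 to CCNB2 was 2.63 at week 0, 2.56 at week 1 and 2.18 at week 4, with ranges of 2.54 to 2.74, 2.28 to 2.89 and 1.91 to 2.44. PTTG1 to ESPL1 was 2.57 at week 0, 2.22 at week 1 and 1.82 at week 4, with ranges of 2.20 to 3.21, 1.86 to 2.61 and 1.62 to 2.19. In these last pairs week 1 overlapped with both other weeks, and week 4 lay below week 0.

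Untreated libraries differed among themselves, and the members did not all follow the same order. Week 0 replicates 1 and 4, in which ribosomal protein genes took 6.38% and 5.62% of the counts against 3.48% to 4.195% in the other untreated libraries, were both above the other 3 libraries for 18 of the 35 members (51.4%, against 22.2% of all tested genes). They were both below the other 3 for 9 members (25.7%, against 28.8%), a share near that of all tested genes. The remaining 8 were mixed. Those above included CDK1, CCNA2, CCNB1, CCNB2, CDKN3, BIRC5, MAD2L1, PTTG1 and HMMR, and those below included CDC25A, CDC25B, PLK1, INCENP, ESPL1, FOXM1 and MKI67. For MKI67 the 5 values were 351, 467, 346, 461 and 426 CPM and for CDKN3 they were 100.2, 51.1, 76.7, 39.9 and 38.2 CPM, in the order of replicates 1, 3, 4, 5 and 6. The part of the ribosomal share in these orders was not tested. With replicates 1 and 4 left out, all 35 members were still called lower at week 1 and at week 4. The median coefficient of variation over members was 11.4% at week 0, 9.14% at week 1 and 14.8% at week 4.

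**Figure D5:**
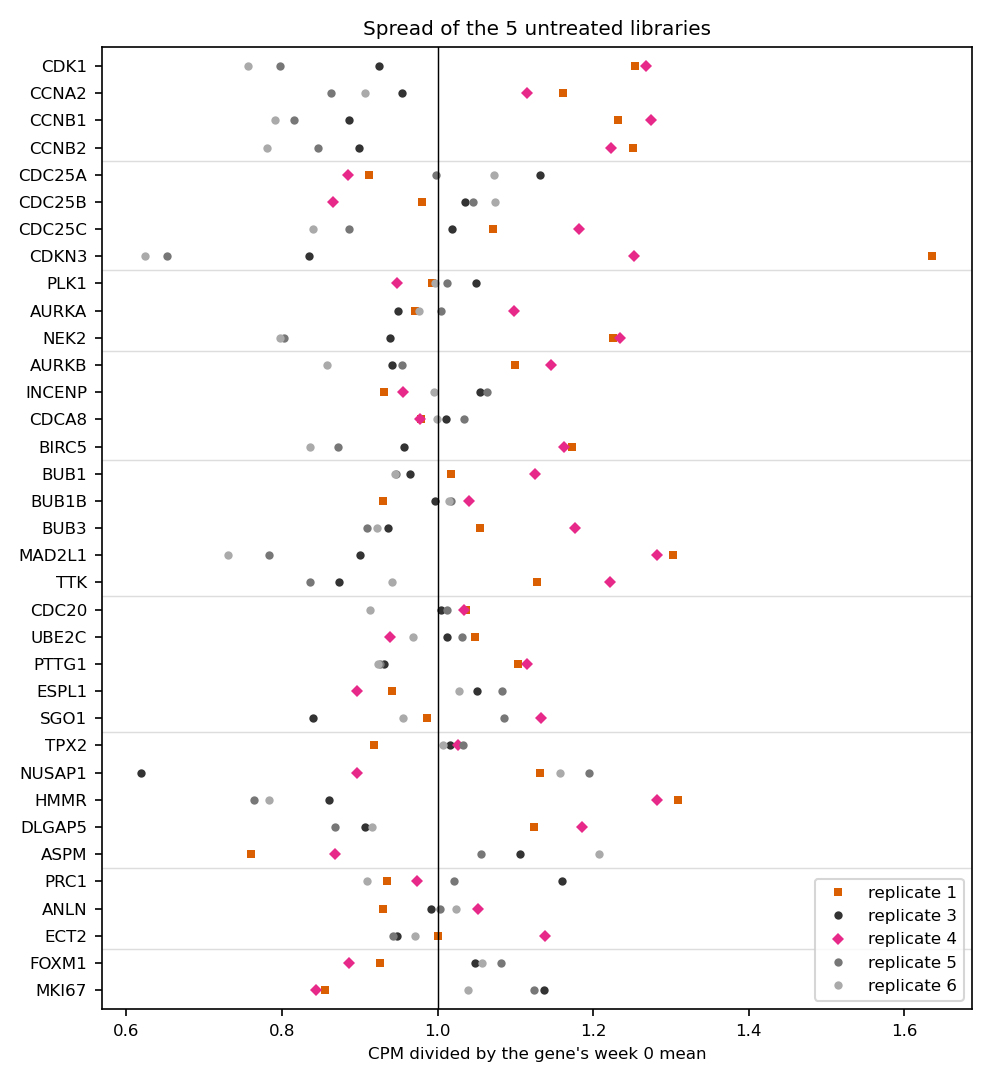
Level of each member in the 5 untreated libraries, each divided by the gene's week 0 mean and drawn as a point per library. Replicates 1 and 4 lie above the other libraries for 18 genes (51.4%, against 22.2% of all tested genes), among them CDKN3, CCNB1 and HMMR. They lie below the others for 9 genes (25.7%, against 28.8%), among them MKI67 and CDC25B.

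Other genes of the division machinery were described from 5 lists, by their counts and medians beside all tested genes. All 30 other mitotic genes were lower at both times (34.0% of tested genes at week 1 and 33.7% at week 4), with median log2 differences of -3.02 at week 1 and -2.74 at week 4, and 16 of them rose (21.8% of tested genes) and 1 fell (18.6%) from week 1 to week 4. MELK, a kinase of dividing cells, averaged 83.0 ± 6.39 CPM at week 0, 11.4 ± 0.600 at week 1 and 14.0 ± 1.06 at week 4. SPAG5, astrin, a spindle protein, averaged 117 ± 10.2 CPM at week 0, 12.1 ± 0.803 at week 1 and 15.1 ± 1.51 at week 4, and TACC3, which links kinetochore fibres, averaged 166 ± 10.3 CPM at week 0, 20.1 ± 1.72 at week 1 and 21.9 ± 2.54 at week 4. Over the list, differences ran from -4.15 to -0.80 at week 1, and for the 35 members from -4.37 to -0.68.

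Most genes of the anaphase-promoting complex were lower too, by less. Of 17 subunits and regulators, 12 were lower and 2 higher at week 1 (34.0% and 32.9% of tested genes), and 14 were lower at week 4 (33.7%), with medians of -0.42 and -0.44. The largest falls at both times were those of FBXO5 and UBE2S. FBXO5, the inhibitor EMI1, averaged 41.4 ± 4.94 CPM at week 0, 5.40 ± 0.626 at week 1 and 7.95 ± 0.720 at week 4. UBE2S, which extends ubiquitin chains, averaged 127 ± 6.08 CPM at week 0, 32.0 ± 2.45 at week 1 and 28.7 ± 1.78 at week 4. ANAPC7, a core subunit, averaged 46.3 ± 1.42 CPM at week 0, 33.3 ± 1.87 at week 1 and 24.4 ± 1.51 at week 4, a log2 difference of -0.92 ± 0.05 (adjusted p = 5e-13) at week 4 (edgeR). CDC20 and UBE2C, which work with this complex, had differences of -3.99 and -2.63 at the same time.

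Among 21 brakes on mitotic entry and phosphatases of mitotic exit, 11 were lower and 4 higher at week 1 (34.0% and 32.9% of tested genes), and 10 were lower and 4 higher at week 4 (33.7% and 33.9%), with medians of -0.12 and -0.19. PKMYT1 and WEE1, the kinases that place the inhibitory phosphates on CDK1, were both lower. PKMYT1 averaged 25.8 ± 2.98 CPM at week 0, 3.15 ± 0.489 at week 1 and 4.60 ± 0.462 at week 4. WEE1 averaged 40.6 ± 3.11 CPM at week 0, 15.5 ± 0.719 at week 1 and 16.98 ± 0.936 at week 4. MASTL, Greatwall kinase, which restrains the opposing phosphatase, averaged 32.6 ± 2.93 CPM at week 0, 10.7 ± 0.991 at week 1 and 11.5 ± 0.731 at week 4. GADD45A, a DNA damage response gene, was higher, at 21.7 ± 0.428 CPM at week 0, 73.3 ± 3.97 at week 1 and 54.4 ± 4.33 at week 4, as was CDKN1A, the inhibitor p21, with log2 differences of 2.91 ± 0.05 and 2.17 ± 0.04. The kinases that CDC25 opposes thus fell along with CDC25 itself.

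Of 17 MuvB, B-MYB, E2F and NF-Y genes, whose products bind mitotic and other cell cycle promoters, 15 were lower at week 1 (34.0% of tested genes) and 12 were lower and 1 higher at week 4 (33.7% and 33.9%), with medians of -0.66 and -0.65. MYBL2, which encodes B-MYB, averaged 71.3 ± 4.49 CPM at week 0, 7.86 ± 0.343 at week 1 and 11.1 ± 0.750 at week 4. LIN9, a MuvB subunit, averaged 11.9 ± 1.27 CPM at week 0, 2.26 ± 0.143 at week 1 and 3.40 ± 0.397 at week 4, and E2F8, a repressor E2F, averaged 10.7 ± 0.895 CPM at week 0, 0.899 ± 0.251 at week 1 and 1.11 ± 0.194 at week 4. From week 1 to week 4, 9 of the 17 rose (21.8% of tested genes) and 1 fell (18.6%). Those that rose included MYBL2, by 0.51 ± 0.06 (edgeR, adjusted p = 2.3e-07), and LIN9, by 0.59 ± 0.09 (adjusted p = 1.4e-05). RBL2, the pocket protein p130 of the repressor DREAM complex, averaged 45.9 ± 3.69 CPM at week 0, 42.3 ± 2.32 at week 1 and 54.8 ± 1.82 at week 4. It was the gene called higher at week 4 than at week 0, by 0.25 ± 0.05 (edgeR, adjusted p = 0.00024).

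The 26 genes of the contractile ring and abscission machinery that also serve cells outside mitosis were called in numbers near those of all genes at week 4. At week 1, 6 were lower and 12 higher (34.0% and 32.9% of tested genes), and at week 4, 9 were lower and 10 higher (33.7% and 33.9%), with medians of 0.11 and -0.04. CHMP1B, a subunit of the ESCRT-III membrane-cutting complex, averaged 45.8 ± 9.16 CPM at week 0, 30.3 ± 1.21 at week 1 and 30.3 ± 0.589 at week 4, and its relative CHMP6 averaged 18.3 ± 1.30 CPM at week 0, 14.6 ± 0.588 at week 1 and 14.99 ± 0.884 at week 4. The septin SEPTIN7 averaged 261 ± 33.3 CPM at week 0, 216 ± 3.98 at week 1 and 216 ± 6.33 at week 4. SEPTIN11 averaged 630.5 ± 67.2 CPM at week 0, 811 ± 49.0 at week 1 and 925 ± 20.2 at week 4 and SEPTIN9 averaged 679 ± 60.6 CPM at week 0, 962 ± 24.3 at week 1 and 911 ± 47.6 at week 4. No gene of this list changed by 2-fold downward, whereas ANLN and ECT2, the members that build the ring, were at -3.37 and -1.95 on the log2 scale at week 1.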

How the data were processed

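Gene expression was measured by RNA-seq in 17 libraries, grouped by titles and treatment in the labels. The authors deposited a table of raw counts per library by gene symbol, made with HISAT2 2.0.5.2 and featureCounts 1.4.6, per the submitters' processing notes. These notes name the mouse build mm10 while the symbols are human. Which genome was used is therefore unclear, and the strand setting is not given in the sources used here. Some deposited files also gave gene length, used here for levels per kilobase. Of 41041 entries, the one with no gene name (0.221% to 0.289% of counts) was left out. Within groups, libraries differed by more than counting noise in all 40 pairs (chi-square per gene of 7.24 or more).

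Counts were tested in R 4.3.3 with edgeR 4.0.16: filterByExpr by group, TMM factors (0.938 to 1.11), a quasi-likelihood fit of a mean per group to all 17 libraries, and Benjamini-Hochberg adjustment over 16891 genes, called under 0.05. The biological coefficient of variation was 11.7%. Levels, in CPM, use the TMM factors and are given as mean ± SD. Marker sums and shares of counts use plain totals. The ± after a log2 difference is its standard error. With no scaling factors the tested genes had a median log2 difference of -0.18, -0.19 and -0.02 in the 3 contrasts, and changes are relative to the TMM scale. The method was tested on simulated data.

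Alternatives were RLE, upper-quartile and no scaling, DESeq2 1.42.0, limma-voom 3.58.1, no filter, a filter of 5 CPM in 5 libraries, a minimum of 2-fold, the replicate number as a block, fewer groups or libraries, and each library left out in turn. The members and gene lists were chosen with earlier results of these data known. All members are described, with library values for those with the largest and smallest change in a role or the largest change between weeks 1 and 4 (counts for NUSAP1). From each further list, up to 3 lower and 2 higher genes of smallest adjusted p at week 4 were named. Start-site windows came from a RefSeq table matched by symbol.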

Additional observations from a re-analysis of the deposited data

Results flagged for a closer look

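A library stood far from the others of its group in 3 of the 105 sets of member and group examined, where chance marks about 1 set in 20. CDCA8 was at 9.86 CPM in week 1 replicate 4, the highest of its group, against 8.86 on average in that group. CDC20 was at 209.8 CPM in week 0 replicate 6, the lowest untreated library. TPX2 was at 279.7 CPM in week 0 replicate 1, again the lowest of its group.

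Members that differed between the time points after treatment, by the test of week 4 against week 1, number 19. Of these, 17 were higher and 2 lower, against 21.8% and 18.6% of tested genes. The log2 differences, week 4 minus week 1, were 0.37 for CCNA2, 0.19 for CDC25B, 0.36 for PLK1, 0.50 for AURKB, 0.26 for INCENP, 0.34 for CDCA8 and 0.36 for BUB1. They were 0.27 for BUB1B, 0.51 for TTK, 0.29 for CDC20, 0.86 for UBE2C, 0.23 for ESPL1, 0.22 for TPX2 and 0.46 for ASPM. They were 0.32 for ANLN, 0.24 for FOXM1 and 0.64 for MKI67, and below 0 for AURKA (-0.21) and BUB3 (-0.36).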

How the results depend on the processing

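Each comparison was recomputed under 23 alternatives, and no called difference changed sign in any of them; sign changes of differences past the threshold in neither setting were not counted. The number of members lower than week 0 was 35 at both times with any 1 library left out, and 34 or 35 under the others. It was 34 under the stricter filter, which left NUSAP1 untested, and 34 under a minimum of 2-fold, which BUB3 did not pass (adjusted p = 1 at week 1 and 0.59 at week 4).

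From week 1 to week 4, the count of members higher was 15 to 22 with a library left out, and that of members lower was 2 to 2. Against a minimum of 2-fold (glmTreat), 0 were higher and 0 lower, also at an unadjusted p under 0.05, whereas DESeq2 and limma-voom without such a minimum gave 19 and 17 higher and 2 lower each. In the 13 libraries whose deposited tables hold no gene length, 1 was lower, AURKA having missed the threshold. Apart from the minimum of 2-fold, 16 of the 19 called members passed under all 22 alternatives, and AURKA, ESPL1 and TPX2 did not. Of the 16 members that did not pass, 8 did so under at least 1 alternative. The cause was not tested.

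Same-numbered libraries did not deviate together (correlations of -0.04 to 0.07 over 16 pairs, 0 of them over 0.1). Libraries of a shared culture need not deviate together, so this cannot tell whether equal numbers mark a shared culture. With the replicate block the counts were 35 lower at week 1, 35 lower at week 4, and 18 higher and 2 lower from week 1 to week 4. Depth limits NUSAP1 most, with 9 counts at most in a treated library.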

Other observations

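The order of libraries within a group was partly shared by the members. At week 4, replicate 3 was the lowest library for 23 of 35 members and replicate 4 the highest for 18. At week 1, replicate 6 was the lowest for 12 and replicate 4 the highest for 13. At week 0, replicate 4 was the highest for 15 and replicate 6 the lowest for 13.

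Genes named as copies or pseudogenes of a member were listed for 13 members, and reads shared with them cannot be assigned here. In the highest library their summed level was 6.47 CPM for the copy of CDC20, and under 1 CPM for each of the others.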
